A study of Homo sapiens with 4 samples.

Results

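MYC, its neighbour PVT1, the MYC regulator FUBP1 and 7 genes of the MAX network, namely MAX, MXD1, MXD3, MXD4, MNT, MGA and MLX, were examined in nascent RNA. They were chosen by name, and all 10 were present among the 60656 gene IDs of each file and among the 19103 genes with enough reads to test. The libraries came from HCT116, a human colorectal carcinoma line, by TTchem-seq, which captures RNA made during a short pulse of 4-thiouridine, a uridine analogue. The 2 DKO libraries are from cells whose TOP2A alleles both carry a mini auxin-inducible degron and whose TOP2B gene was disrupted with CRISPR/Cas9; they received 500 µM auxin for 8 h, a design meant to leave the cells without type II topoisomerases. The 2 WT libraries carry the genotype label wildtype, the protocol names the TOP2A degron line with intact TOP2B as the other line used, and no auxin is recorded for them. Cells of both groups were held in G1 for 28 h by 2 µM palbociclib, which blocks CDK4 and CDK6, and labelled with 1 mM 4-thiouridine for 30 min. Loss of the enzymes, auxin and any difference between the cell lines cannot be told apart in this design, and separate cultures are not stated for the replicates.

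MYC is a transcription factor that drives growth and binds DNA as a pair with MAX. The MXD proteins, MNT and MGA compete for MAX and repress, while MLX is a MAX-like partner of the glucose-sensing factors MLXIP (MondoA) and MLXIPL (ChREBP). The pairs recognise the E-box CACGTG. MYC is itself sensitive to DNA supercoiling, because FUBP1 binds a far upstream element that opens into single strands when transcription of the gene twists the DNA behind it. PVT1 is a long non-coding RNA gene next to MYC whose promoter competes with that of MYC for enhancers in some cell types.

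MYC and PVT1 differed between DKO and WT in opposite directions. MYC rose 1.23-fold and PVT1 fell 1.22-fold, FUBP1 rose slightly, and MLX and MXD4 fell. MAX, the partner of MYC and of the MXD proteins, did not pass the test, and neither did MXD1, MXD3, MNT and MGA. Thus 5 of the 10 genes were called at an adjusted p under 0.05, 2 higher and 3 lower, against 40.1% of all tested genes called, 19% higher and 21.1% lower, so the share called was near the background. Among the 9 protein-coding members 4 were called, against 45.5% of tested protein-coding genes. The median log2 fold change of the 10 genes was 0.01 and their median absolute value 0.16, against -0.01 and 0.19 over all tested genes. Levels are given as CPM, the reads of a gene relative to the TMM-scaled library total. Errors of log2 fold changes are standard errors from edgeR with n = 2 per group, and adjusted p-values are Benjamini-Hochberg values of its quasi-likelihood test. Of the 61 called genes named in all, 31 missed the threshold when no count filter was used, MYC, FUBP1, MLX and MXD4 among them.

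**Figure D1:**
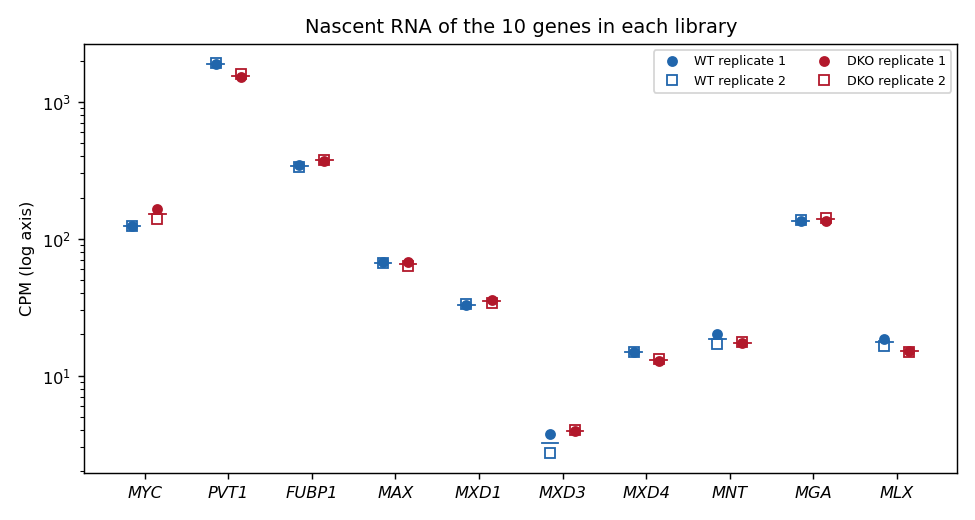
CPM on a log axis for each of the 10 genes in each library, with WT in blue, DKO in red and a line at the mean of the 2 libraries. PVT1 has the most reads and MXD3 the fewest, and the separation of the groups is small beside the differences between genes.

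The E-box that MYC, MAX and MLX complexes bind occurs in the promoters of some of these genes themselves, so those promoters are shown. Windows from 250 bases before to 50 bases after a start site (RefSeq, GRCh38.p14) were found for 7 of the 10 genes, and not for MYC, PVT1 and FUBP1. The motif searched was CACGTG, which reads the same on both strands. It was present once in the windows of MXD4, MNT and MLX and absent from those of MXD1, MXD3, MAX and MGA. Counted by gene in the same way, 1452 of 12202 tested genes with a window had it. Counted by window, the share was 7.26% of all 35116 promoter windows of that length. The 250 bases before the start site are given 5′ to 3′ on the strand of the gene, with the E-box in capitals. They lie at chr4:2262110-2262359 (minus strand) for MXD4, chr17:2401061-2401310 (minus strand) for MNT and chr17:42566850-42567099 (plus strand) for MLX.
MXD4: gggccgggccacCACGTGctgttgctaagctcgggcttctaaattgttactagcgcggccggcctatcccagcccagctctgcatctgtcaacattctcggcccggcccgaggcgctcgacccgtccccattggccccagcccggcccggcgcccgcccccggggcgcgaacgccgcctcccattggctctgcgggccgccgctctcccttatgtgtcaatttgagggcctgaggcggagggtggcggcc
MNT: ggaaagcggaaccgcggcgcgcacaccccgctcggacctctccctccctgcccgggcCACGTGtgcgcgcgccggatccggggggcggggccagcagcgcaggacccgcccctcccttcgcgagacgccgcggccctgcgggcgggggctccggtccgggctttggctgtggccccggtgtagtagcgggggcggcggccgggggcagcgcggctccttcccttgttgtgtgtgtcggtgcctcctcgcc
MLX: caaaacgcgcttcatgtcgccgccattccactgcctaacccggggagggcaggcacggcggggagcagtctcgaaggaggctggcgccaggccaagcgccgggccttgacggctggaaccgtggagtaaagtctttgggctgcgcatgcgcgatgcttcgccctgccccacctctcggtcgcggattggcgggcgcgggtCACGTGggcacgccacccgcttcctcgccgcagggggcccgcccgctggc
The E-box ends 232 bases before the start site in MXD4, 187 in MNT and 44 in MLX. MXD4 and MLX were called lower in DKO, and MNT, whose groups overlapped, was not called. Among all tested genes with such a window, those with the E-box were called lower in 24.6% of 1452 cases and higher in 19.5%. Without it the shares were 23.2% and 20.2% of 10750, and the medians were -0.03 and -0.01 on the log2 scale, so genes with the motif as a whole stood close to the others.

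MYC lies on chromosome 8 from 127735434 to 127742951 (hg38). It stood at 165 and 140.0 CPM in the DKO libraries (8787 and 7466 reads) and at 123 and 124 CPM in WT (6394 and 6340 reads). Both DKO libraries were above both WT libraries, but DKO replicates differed from each other by more than the lower of them differed from WT. The edgeR standard error reflects little of that gap, since it leans mostly on spread shared over genes. The log2 fold change was 0.30 ± 0.05 (edgeR adjusted p = 2.81e-08). Without DKO replicate 1 it was 0.18 (adjusted p = 0.0021). Without WT replicate 1 (0.30, adjusted p = 0.162) or WT replicate 2 (0.30, adjusted p = 0.116) the size held and the call was lost. Those fits take the spread from the DKO pair alone and call 9.88% and 15.8% of genes.

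PVT1 begins 59.1 kb from the start of MYC and spans 307 kb of chromosome 8, from 127794524 to 128101256. It stood at 1526.5 and 1588 CPM in DKO and at 1883 and 1907 CPM in WT, with 81279 to 97669 reads per library. The groups did not overlap, and replicates lay close together. The log2 fold change was -0.28 ± 0.06 (edgeR adjusted p = 9.51e-06). Without WT replicate 1 (-0.29, adjusted p = 0.0701) or WT replicate 2 (-0.28, adjusted p = 0.0573) it missed the threshold at an almost equal size.

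The ratio of PVT1 to MYC reads within a library does not depend on how libraries are scaled. It was 9.25 and 11.3 in DKO and 15.3 and 15.4 in WT, so the pair shifted toward MYC in both DKO libraries. The ratio was 1.5-fold lower in DKO (difference in log2 -0.58, SD 0.21 in DKO and 0.01 in WT). An exact two-sided permutation test over the 6 splits of 4 libraries gave p = 0.333, the smallest value this design allows. With 1 library left out the difference lay between -0.43 and -0.73. Divided by span, MYC nonetheless had the denser signal, at 16.4 and 16.5 CPM per kb in WT against 6.14 and 6.22 for PVT1, and at 22 and 18.6 against 4.98 and 5.18 in DKO. The sources used here do not state whether introns were counted, so such levels per kb of span compare genes only roughly.

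**Figure D2:**
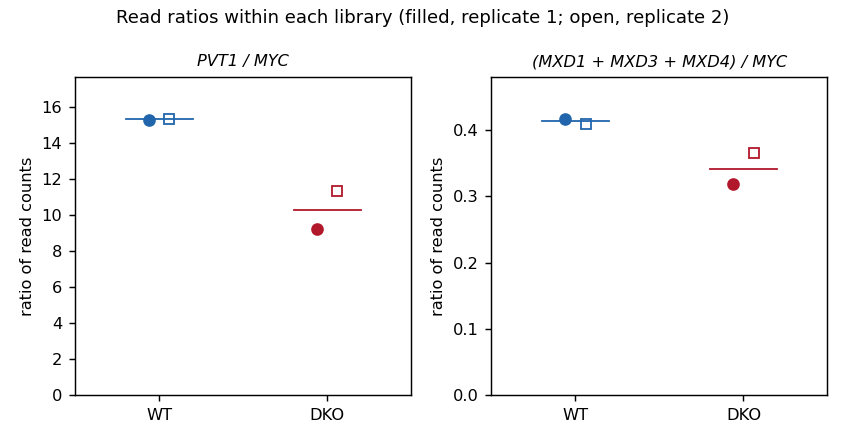
Ratio of PVT1 reads to MYC reads (left) and of summed MXD1, MXD3 and MXD4 reads to MYC reads (right) in each library, with a line at the group mean. Both DKO libraries lie below both WT libraries in each panel, and MYC, which was higher in DKO, is the denominator in each.

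Other transcripts of this part of chromosome 8 were mostly higher in DKO. Of 10 tested genes that start within 2 Mb of MYC, MYC and PVT1 included, 6 were called higher and 2 lower. With MYC and PVT1 left out, 5 of 8 were called higher and 1 lower. The shares were 19% and 21.1% of all tested genes and 27% and 17.2% of 593 tested genes on chromosome 8. Of tested long non-coding RNA genes as a class 32.8% were called in either direction. CASC19, a long non-coding RNA gene whose span starts at -547.6 kb relative to that of MYC, rose from 61.9 and 59.4 CPM in WT to 89.8 and 88.3 CPM in DKO. Its log2 fold change was 0.55 ± 0.05 (edgeR adjusted p = 3.21e-21), and it stayed called with each library left out. LINC00824, at 669.8 kb on the other side and thus beyond PVT1, rose from 52 and 38 reads in WT to 106 and 107 in DKO (1.19 ± 0.19, adjusted p = 4.24e-08), also with each library left out. The non-coding genes CASC8 (0.50 ± 0.10, adjusted p = 1.33e-05) and CASC11 (0.69 ± 0.19, adjusted p = 0.00159) rose too, the latter on 56 to 108 reads per library. CASC11 ends just below the start of MYC, at 127733967. PCAT1 rose least (0.12 ± 0.05, adjusted p = 0.047) and was named after its value was seen.

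LRATD2, at -1183 kb and the one other protein-coding gene tested in the window, fell (-0.27 ± 0.07, adjusted p = 0.000423). CCDC26 (-0.09 ± 0.10, adjusted p = 0.519) and LINC00861 (0.47 ± 0.27, adjusted p = 0.168) were not called. PVT1 was therefore the only gene called lower within 1 Mb, where 6 of 7 tested genes, MYC among them, were called higher. Without WT replicate 1 or WT replicate 2, 2 genes were called higher and none lower in the 2 Mb window. MYC, PVT1, CASC8, CASC11, PCAT1 and LRATD2 then missed the threshold (adjusted p of 0.0573 to 0.323). Without DKO replicate 2, CASC11 (0.45, adjusted p = 0.139) and PCAT1 (0.06, adjusted p = 0.425) missed it, as they did with the DESeq2 Wald test (0.0717 and 0.113). PCAT1 also missed it with total counts as the scale (0.0631) and with limma voom (0.0542).

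**Figure D3:**
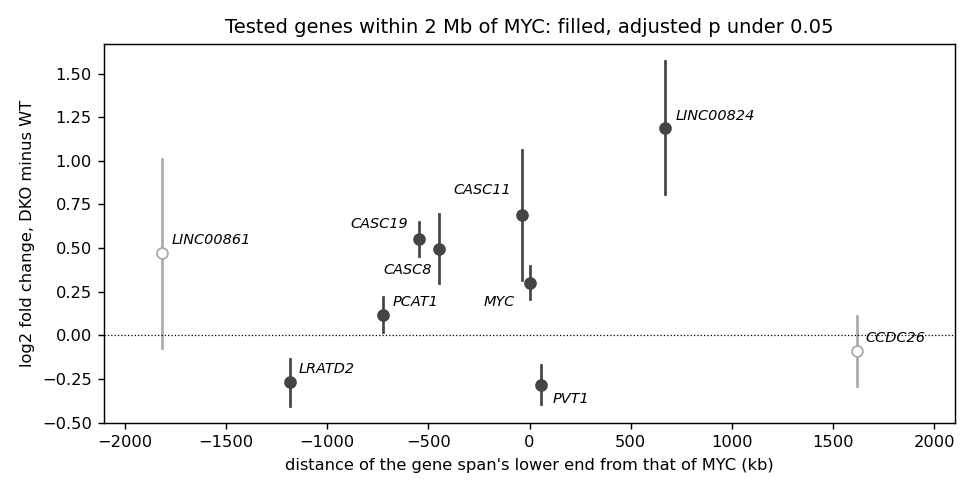
Log2 fold change of each tested gene within 2 Mb of MYC against the distance between the lower ends of its span and that of MYC in kb, with 95% intervals and filled points for called genes. PVT1, at -0.28, lies below 0 between MYC at 0.30 and LINC00824 at 1.19.

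FUBP1, on chromosome 1 from 77944055 to 77979501, encodes the protein that senses the opened far upstream element and activates MYC. It stood at 369 and 377 CPM in DKO and at 347 and 336 CPM in WT. The groups did not overlap, with a log2 fold change of 0.13 ± 0.05 (edgeR adjusted p = 0.0261). Without DKO replicate 2 (0.11, adjusted p = 0.092), WT replicate 1 (0.15, adjusted p = 0.155) or WT replicate 2 (0.10, adjusted p = 0.267) it missed the threshold.

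Other proteins that bind or open the MYC promoter were read from a list of 9 genes, of which 8 were tested and NME2 was listed at 0. Of the 8, 1 was called higher and 3 lower. The share called was 50%, near the 45.5% of tested protein-coding genes, against 40.1% of all tested genes. HNRNPK, which binds the CT element of the promoter, rose (0.19 ± 0.05, adjusted p = 0.000545). FUBP3, a paralogue of FUBP1 (-0.19 ± 0.05, adjusted p = 0.000452), and the TFIIH helicase genes ERCC3 (-0.24 ± 0.05, adjusted p = 2e-05) and ERCC2 (-0.23 ± 0.07, adjusted p = 0.00466) fell. PUF60, which encodes the repressor that acts against FUBP1, had values of 53.1 and 51.9 CPM in DKO and 54.9 and 48.6 CPM in WT, and KHSRP, CNBP and NCL were not called either. When WT replicate 1 was left out, the called members of the list had adjusted p of 0.0679 to 0.16, and for WT replicate 2 the range was 0.0519 to 0.127. ERCC2 also missed it without DKO replicate 2 (-0.20, adjusted p = 0.0586).

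MAX, the shared partner, lies on chromosome 14 from 65006101 to 65102695. It stood at 68.1 and 63.5 CPM in DKO and at 67.5 and 65.9 CPM in WT. The groups overlapped fully, and the log2 fold change of -0.02 had a 95% interval from -0.12 to 0.08 (edgeR adjusted p = 0.798). Its sign turned with upper quartile factors (0.0156) and without DKO replicate 2 (0.0296). Over 56550 bases of its span the annotation also places FNTB, so reads there may not have been assigned to MAX. The same limit holds over shorter stretches for other members. MXD1 shares 10229 bases with ASPRV1, MXD3 1451 with PRELID1, MLX 894 with PSMC3IP and FUBP1 327 with DNAJB4.

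The MXD genes encode repressors that pair with MAX and recruit SIN3. MXD4, on chromosome 4 from 2247432 to 2262109, stood at 12.7 and 13.3 CPM in DKO and at 14.9 CPM in both WT libraries. Its groups did not overlap (-0.20 ± 0.08, adjusted p = 0.0337). The call was lost with upper quartile factors (-0.16, adjusted p = 0.0796), with the DESeq2 Wald test (-0.19, adjusted p = 0.151), and without DKO replicate 1 (-0.16, 0.176), WT replicate 1 (-0.20, 0.169) or WT replicate 2 (-0.20, 0.148). MXD1, on chromosome 2 from 69915109 to 69942945, stood at 35.9 and 33.8 CPM in DKO and 32.8 and 33.2 CPM in WT. Its groups were separate by a small margin, and its log2 fold change of 0.08 (95% interval -0.04 to 0.20, adjusted p = 0.303) was not called. MXD3, on chromosome 5 from 177305499 to 177312752, had the fewest reads, 210 and 212 in DKO and 194 and 138 in WT. The WT libraries differed more from each other than WT replicate 1 did from DKO. At 0.30 ± 0.13 (adjusted p = 0.0544) it was just outside the threshold, and the value moved to 0.55 when WT replicate 1 was left out and to 0.08 when WT replicate 2 was. DESeq2 size factors (adjusted p = 0.045), upper quartile factors (0.032), a filter of at least 50 reads in 2 libraries (0.0424), a fit on protein-coding genes alone (0.0366) and the replicate number as a blocking term (0.0431) each brought MXD3 under the threshold.

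Set against MYC, the summed reads of MXD1, MXD3 and MXD4 were 0.318 and 0.365 times those of MYC in DKO and 0.418 and 0.41 times in WT. Both DKO libraries were lower. MYC, the denominator, was itself 0.30 higher in DKO on the log2 scale, so the ratio is no separate result on the MXD genes. The difference of the ratio in log2 was -0.28 (SD 0.14 in DKO and 0.02 in WT), with an exact two-sided permutation p of 0.333, the smallest possible. It was -0.23 as the mean of the log2 ratios of the 3 genes, and -0.18 without DKO replicate 1. With MXI1, a related repressor gene with more reads, added to the sum after the data were seen, the ratio was 0.927 and 1.09 in DKO and 1.08 and 1.11 in WT. The groups then overlapped, with a difference of -0.12 (exact permutation p = 0.667).

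MNT, MGA and MLX complete the network. MNT, on chromosome 17 from 2384073 to 2401060, encodes a repressor present in most cells and stood at 17.4 and 17.5 CPM in DKO and at 20.2 and 17 CPM in WT. The groups overlapped (-0.10, 95% interval -0.24 to 0.05, adjusted p = 0.307), and the sign turned without WT replicate 1 (0.03). MGA, on chromosome 15 from 41621224 to 41769940, encodes a scaffold of a Polycomb complex and stood at 136 and 142 CPM in DKO and 134 and 136 CPM in WT. The groups overlapped here too (0.04, 95% interval -0.05 to 0.13, adjusted p = 0.517). MLX, on chromosome 17 from 42567100 to 42573203, stood at 15.2 and 15 CPM in DKO and at 18.7 and 16.6 CPM in WT. DKO libraries lay below WT and close together (-0.23 ± 0.08, adjusted p = 0.00972). Without WT replicate 1 it was -0.14 (adjusted p = 0.258), and with the DESeq2 Wald test the adjusted p was 0.0842. Tested genes of chromosome 17 as a whole had a median of -0.07, with 28.6% of 877 called lower.

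In all, 7 of the 10 genes had groups that did not overlap, against 67.9% of all tested genes. Per kb of span the order in WT was MYC, FUBP1, PVT1, MLX, MXD1, MNT, MXD4, MGA, MAX and MXD3. The libraries of MXD1 and MNT, of MNT and MXD4, and in DKO of MXD4 and MGA lay within or close to each other's range, while the first 4 genes were well apart.

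**Figure D4:**
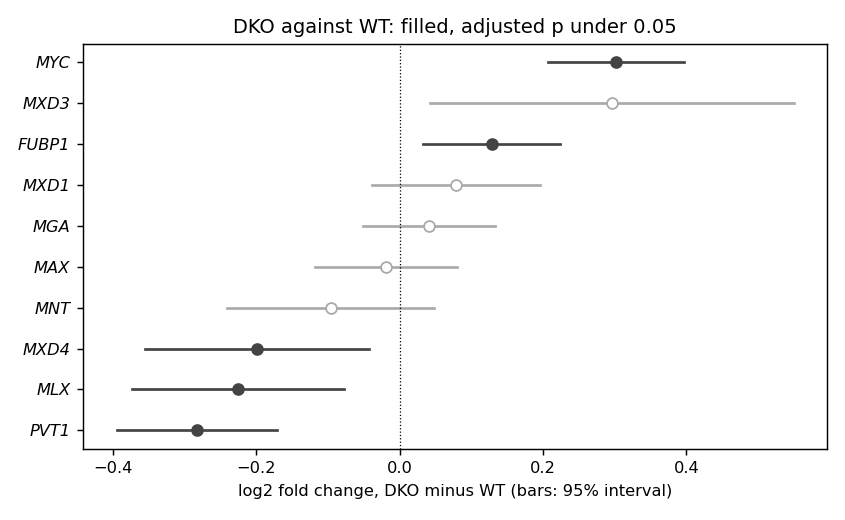
Log2 fold change of DKO against WT with 95% intervals from edgeR for the 10 genes, filled where called. MYC and MXD3 have almost the same value, 0.30, but the interval of MXD3 is wider, and PVT1 is lowest at -0.28.

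The other genes of the MAX and MLX network were read from a list of 5, of which MYCN was listed at 0 and the other 4 were all called, 2 in each direction, against 45.5% of tested protein-coding genes. MXI1, a further MXD-type repressor, rose from 81.9 and 86.4 to 100.4 and 101.5 CPM (0.26 ± 0.05, adjusted p = 1.12e-06). MLXIPL fell from 26.9 and 27.5 to 19.6 and 20.5 CPM (-0.44 ± 0.07, adjusted p = 4.16e-09). MLXIP fell slightly (-0.11 ± 0.05, adjusted p = 0.0466), as its partner MLX did. MYCL, named after its value was seen, rose on 84 to 144 reads per library (0.40 ± 0.15, adjusted p = 0.0291). Leaving out WT replicate 1 ended the call of MXI1 at an adjusted p of 0.0666 (log2 fold change 0.22). MYCL missed it without DKO replicate 2 (0.34, 0.138), WT replicate 1 (0.66, 0.0721) and WT replicate 2 (0.17, 0.464). MLXIP missed it without DKO replicate 1 (-0.08, 0.27), WT replicate 1 (-0.13, 0.216) and WT replicate 2 (-0.10, 0.272), and with upper quartile factors (-0.08, 0.202). DESeq2 size factors (0.069), a filter of 50 reads (0.0572), protein-coding genes alone (0.0675) and the DESeq2 Wald test (0.154) also ended the call of MLXIP, and that last test also the call of MYCL (0.222).

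Of 7 genes known to respond to MLX complexes 4 were tested. All 4 were called, 2 higher and 2 lower, against 40.1% of all tested genes and 45.5% of tested protein-coding genes. The median log2 fold change of the 4 was 0.08, against -0.01 over all tested genes. ARRDC4, an arrestin gene (0.55 ± 0.09, adjusted p = 6.45e-08), and the hexokinase gene HK2 (0.36 ± 0.05, adjusted p = 5.98e-11) rose. KLF10 (-0.29 ± 0.05, adjusted p = 7.6e-07) and the glycolysis regulator PFKFB3 (-0.20 ± 0.05, adjusted p = 0.00023) fell. Without WT replicate 1, ARRDC4 (0.41, adjusted p = 0.0733), KLF10 (-0.28, 0.0525) and PFKFB3 (-0.22, 0.0773) missed the threshold, and PFKFB3 also without WT replicate 2 (-0.18, 0.0891).

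Genes that MYC is known to activate were called in both directions. Of 60 listed 54 were tested, and 7 were called higher and 13 lower. The median log2 fold change was -0.05 against -0.01 over all tested genes. In all 37% were called, against 40.1% of all tested genes and 45.5% of tested protein-coding genes. TERT, the catalytic subunit of telomerase, rose from 8.04 and 8.67 to 12.6 and 12.2 CPM (0.57 ± 0.09, adjusted p = 1.05e-08). The amino acid transporter gene SLC7A5 rose from 276 and 258 to 370.4 and 346 CPM (0.42 ± 0.05, adjusted p = 3.56e-14), and WDR74 rose by 0.19 ± 0.05 (adjusted p = 0.00172). AHCY, an enzyme of the methionine cycle (-0.82 ± 0.05, adjusted p = 1.92e-38), the box C/D snoRNP gene NOP56 (-0.61 ± 0.05, adjusted p = 8.07e-26) and the spermidine synthase gene SRM (-0.42 ± 0.08, adjusted p = 2.81e-06) fell. RRS1, a ribosome assembly gene named after its value was seen, fell as well on 206 to 330 reads per library (-0.47 ± 0.11, adjusted p = 0.000276). AHCY and NOP56 are on chromosome 20, where 79.4% of 428 tested genes were called lower. Without that chromosome 7 members were higher and 11 lower. SRM (-0.37, adjusted p = 0.057), WDR74 (0.27, 0.0701) and RRS1 (-0.34, 0.195) missed the threshold without WT replicate 1, and WDR74 without WT replicate 2 (0.12, 0.23).

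Genes that MYC is known to repress were read from a list of 11, with 10 tested, 4 called higher and 1 lower, against 19% and 21.1% of all tested genes (medians 0.15 and -0.01). NDRG1, a growth arrest gene, rose from 33.6 and 32.5 to 68.7 and 70.2 CPM (1.07 ± 0.05, adjusted p = 2.11e-46). The cyclin-dependent kinase inhibitor genes CDKN1A (0.53 ± 0.06, adjusted p = 1.99e-15) and CDKN1B (0.53 ± 0.06, adjusted p = 7.16e-13) rose as well. These 3 calls held with each library left out. THBS1, named after its value was seen, was called higher (0.17 ± 0.07, adjusted p = 0.0343), but stood at 0.02 without DKO replicate 1 (adjusted p = 0.902), 0.30 without DKO replicate 2 (0.00024), 0.35 without WT replicate 1 (0.173) and at 9e-04 without WT replicate 2 (0.997). It was not called with total counts (0.0787), limma voom (0.051) or the DESeq2 Wald test (0.617). KLF6 fell (-0.17 ± 0.05, adjusted p = 0.00164), with adjusted p of 0.0576 without DKO replicate 2, 0.242 without WT replicate 1 and 0.0864 without WT replicate 2.

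**Figure D5:**
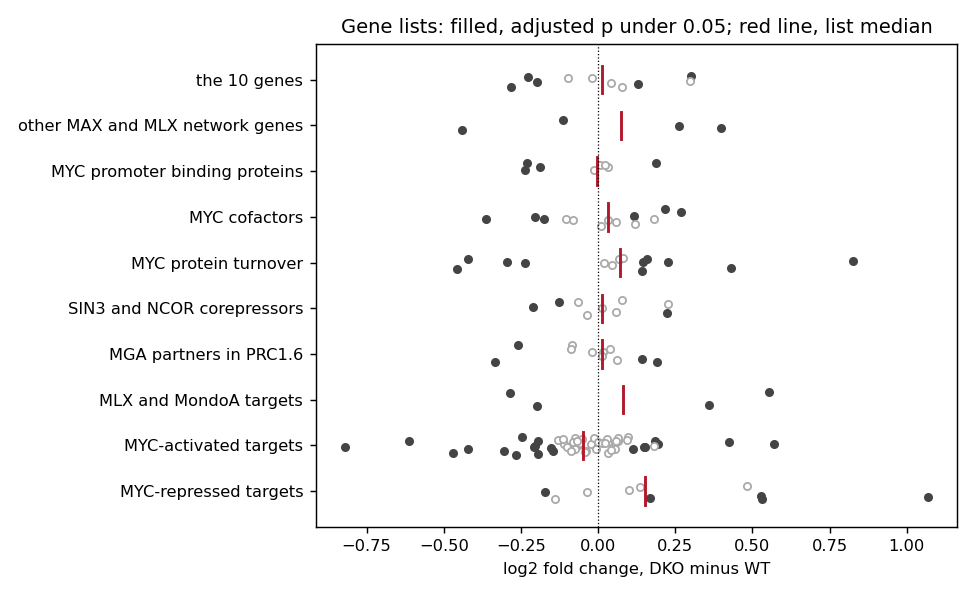
Log2 fold change of every tested gene of the 10 genes and of each related list, filled where called, with the list median as a red line. The medians lie between -0.05 for MYC-activated targets and 0.15 for MYC-repressed targets, and most lists spread to both sides of 0.

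Cofactors that MYC recruits were split, with 3 of 13 higher and 3 lower. Thus 46.2% were called, near the 45.5% of tested protein-coding genes, against 40.1% of all tested genes. The median was 0.03, against -0.01 over all tested genes. HCFC1 (0.27 ± 0.06, adjusted p = 6.07e-05) and the helicase gene RUVBL1 (0.22 ± 0.05, adjusted p = 5.39e-05) were among those that rose. KAT2A, an acetyltransferase gene named after its value was seen (-0.36 ± 0.12, adjusted p = 0.0111), WDR5 (-0.20 ± 0.05, adjusted p = 0.000325) and ACTL6A (-0.17 ± 0.06, adjusted p = 0.00782) fell. None of these 5 genes passed when WT replicate 1 was left out (adjusted p of 0.0838 to 0.457) or WT replicate 2 was (0.0861 to 0.333). HCFC1 was 0.16 without DKO replicate 2 and 0.15 without WT replicate 2. With the DESeq2 Wald test HCFC1 (adjusted p = 0.176), KAT2A (0.158) and ACTL6A (0.0507) were not called. KAT2A was -0.20 without DKO replicate 1 (adjusted p = 0.301), -0.55 without DKO replicate 2 and -0.22 without WT replicate 1.

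Genes that set the life of the MYC protein had 6 of 15 members higher and 4 lower, against 19% and 21.1% of all tested genes, with a median of 0.07 against -0.01. Of those that qualified by the naming rule, PPP2R5A, a phosphatase subunit that promotes MYC loss (0.43 ± 0.05, adjusted p = 1.52e-15), the ubiquitin ligase gene HUWE1 (0.23 ± 0.05, adjusted p = 6.33e-05) and CIP2A, which shields MYC from that phosphatase (0.16 ± 0.05, adjusted p = 0.00357), rose. FBXO32, an F-box gene named after its value was seen, went from 140 and 156 reads in WT to 265 and 278 in DKO (0.82 ± 0.12, adjusted p = 3.72e-09) and was called with each library left out. AURKA, on chromosome 20 (-0.42 ± 0.05, adjusted p = 1.24e-11), the ligase gene SKP2 (-0.24 ± 0.05, adjusted p = 2.46e-05) and STUB1, named after its value was seen (-0.46 ± 0.13, adjusted p = 0.00166), fell. Without WT replicate 1, HUWE1, CIP2A, SKP2 and STUB1 missed the threshold (adjusted p of 0.0829 to 0.239), with STUB1 at -0.25. Without WT replicate 2, HUWE1, CIP2A and SKP2 missed it (0.0665 to 0.11). STUB1 was not called by the DESeq2 Wald test (adjusted p = 0.0683).

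Corepressors used by the MXD proteins and MNT had 33.3% of members called, with a median of 0.01. That is below the 40.1% of all tested genes and the 45.5% of tested protein-coding genes. The corepressors had 1 of 9 members higher, SIN3A (0.22 ± 0.05, adjusted p = 2.75e-05), and 2 lower, its paralogue SIN3B (-0.21 ± 0.06, adjusted p = 0.001) and RBBP4 (-0.13 ± 0.05, adjusted p = 0.02). Of 11 partners of MGA in its Polycomb complex 36.4% were called, also below 40.1% and 45.5%, with a median of 0.01. Those that rose were 2, the ubiquitin ligase gene RNF2 (0.19 ± 0.05, adjusted p = 0.00037) and YAF2 (0.14 ± 0.05, adjusted p = 0.00952). TFDP1, a dimer partner of E2F factors (-0.34 ± 0.05, adjusted p = 1.89e-09), and L3MBTL2 (-0.26 ± 0.07, adjusted p = 0.000785) fell. TFDP1 was called with each library left out, though only at the edge of the threshold without WT replicate 1 (log2 fold change -0.26). The other 6 genes did not pass when WT replicate 1 was left out (adjusted p of 0.0797 to 0.381, with YAF2 at 0.09), nor did SIN3A, RBBP4, RNF2 and YAF2 when WT replicate 2 was (0.0515 to 0.198). RBBP4 missed it without DKO replicate 1 (0.0675), with upper quartile factors (-0.09, 0.129) and with the DESeq2 Wald test (0.0501), and YAF2 without DKO replicate 2 (0.143).

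By Euclidean distance between log2 CPM values centred over the 4 libraries, the protein-coding genes most like MYC among 9096 candidates were RBM24 (distance 0.0394), HERPUD1 (0.0436) and ZNF502 (0.0444). Each, like MYC, was highest in DKO replicate 1, for instance HERPUD1 with 66.9 and 58 CPM in DKO and 50.3 and 49.3 CPM in WT. Those most like PVT1 were WNK2 (0.00896), SERTAD2 (0.0116) and SH2B2 (0.0123), for instance WNK2 with 78.8 and 82.1 CPM in DKO and 97.9 and 99 CPM in WT. With 4 libraries this likeness is a description only.

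The libraries held 51142867 to 53777749 counted reads. Of the edited genes, TOP2B RNA did not separate the groups by the test (0.07, adjusted p = 0.223) and TOP2A RNA was higher in DKO (0.42, adjusted p = 3.46e-15), so neither gene's RNA showed a loss in DKO and these counts do not check the labels. Of 9 listed epithelial markers 8 were tested, among them KRT8 (131 to 166 CPM) and EPCAM (69.2 to 72.9 CPM). VIL1, the other, had only 11 and 8 reads in DKO and 4 and 9 in WT. Of the 8 tested epithelial markers, 6 were called lower in DKO and none higher, against 21.1% and 19% of all tested genes. Their median was -0.21 against -0.01. Summed markers of fibroblasts were at 3.15 to 3.85 CPM and of endothelium at 1.19 to 1.43. Those of immune cells were at 0.483 to 0.491 in DKO and 0.193 to 0.235 in WT. COL1A2 and LUM were listed at 0 in all libraries. Genes that every cell uses, EIF4A1 among them, were also listed at 0, so these zeros are no measure of transcription. The part of the epithelial difference in the values above was not tested.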

How the data were processed

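The authors deposited unnormalized counts of reads for each Ensembl ID in every library. STAR 2.7.3a, featureCounts 1.6 and hg38 are named in the submitters' processing notes. Strand setting, gene set version and whether introns were counted are not stated there, so overlapping genes are uncertain. The tables hold no spike-in that could set an absolute scale.

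Symbols were found for 42058 of 60656 IDs and RefSeq spans (GRCh38.p14) for 40250. Groups were compared with edgeR 4.0.16 (R 4.3.3) by its quasi-likelihood test over all genes, with group as the term, TMM factors and filterByExpr (minimum count 10, minimum total 15). Standard errors are the absolute log2 fold change over the square root of F. Log2 CPM used a prior count of 2. On simulated counts for this comparison (19103 genes, changed genes at 8 CPM or more), 90% of 50 genes changed 1.25-fold were recovered, and 100% at 1.5-fold and above. These counts were drawn with edgeR's own dispersion estimates and tested with the same model. Their recovery therefore cannot show how reliable the calls in the real libraries are.

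The genes and lists were chosen with earlier results of these data known. Named are all 10 genes, up to 3 called genes per direction of each list whose mean log2 CPM reached 3, the 3 nearest tested genes on each side of MYC with up to 3 called genes per direction within 2 Mb, and the 3 nearest profiles. Genes beyond this are marked, and some list genes are not reported here singly though counted in their lists. P-values rest on a spread between these libraries that edgeR shares largely over genes, so a gene's own replicate gap weighs little. MYC, at 165 and 140 CPM in DKO, thus had a standard error of 0.048. That of TOP2A, at 165 and 168 CPM in DKO, was 0.047. Replicates of a group differed by more than sampling noise (chi-square per degree of freedom 4.98 in DKO and 4.33 in WT). DESeq2 1.42.0, limma 3.58.1 and other scalings and filters were alternatives. Figures were drawn with matplotlib 3.10.9.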

Additional observations from a re-analysis of the deposited data

How the results depend on the processing

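The counts of called genes depended most on the WT libraries and on the filter. Across fits with 1 library left out, the members called higher ranged from 0 to 2 and lower from 0 to 3, the related list genes called higher from 8 to 25 and lower from 5 to 29, and the genes around MYC from 2 to 6 and 0 to 2. The single library remaining in a group is then taken to have the spread of the other pair. With no count filter 0 members were called higher and 1 lower, 13 and 10 list genes, and 2 and 1 genes around MYC, while 9.81% of all genes were called; MYC then had a log2 fold change of 0.29 (adjusted p = 0.123). With the DESeq2 Wald test 1 member was called lower, PVT1, and the same 2 were higher. A fit on protein-coding genes called 1 gene around MYC higher and 1 lower, since only 2 of them are in it, and the 1 Mb window held 1 lower. The main counts were 2 and 3 members, 28 and 32 of 127 tested list genes, and 6 and 2 genes around MYC. Directions turned for 7 genes, none of them called. With 1 library left out these were MAX (-0.0683 to 0.0296), MNT (-0.215 to 0.0313), CCDC26 (-0.239 to 0.0486), KHSRP (-0.0985 to 0.116), NCL (-0.0126 to 0.0726) and PUF60 (-0.0647 to 0.11). With upper quartile factors they were MAX (0.0156) and CNBP (0.02), and with no count filter KHSRP (-0.0014). Upper quartile factors also gave 4226 genes higher and 3328 lower (55.9% of calls higher, against 47.4%), 3 and 2 members, and 32 and 27 list genes. Left-out differences ranged from -0.73 to -0.43 for the PVT1 to MYC ratio and from -0.38 to -0.18 for the MXD to MYC ratio, which was -0.12 with MXI1 added. Of 61 named genes that were called, 31 lost the call with no count filter and 14 with the DESeq2 Wald test. The call held for 17 with each library left out, and 44 lost it without WT replicate 1, 34 without WT replicate 2, 7 without DKO replicate 1 and 7 without DKO replicate 2. The cause was not tested.

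The replicate numbers share no stated batch. Deviations of same-numbered libraries correlated at -0.0104 over 10036 genes, so no common deviation was seen over these genes as a whole. A correlation over so many genes cannot exclude a shared batch that affected only some of them. With the replicate block 7820 genes were called in place of 7657, and MXD3 was the one named gene that crossed the threshold. The block left 3 members called lower and the PVT1 to MYC difference at -0.58.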

Other observations

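The 4 miRNA genes that the annotation places inside PVT1, MIR1204, MIR1205, MIR1206 and MIR1207, were each listed at 0 reads in all 4 libraries, while PVT1 itself had the most reads of the 10 genes. Among listed MYC targets, EIF4A1, NME1 and PPAN were also listed at 0 in every library, and TXNIP, a main target of MLX complexes, had 1 read in WT replicate 1 and none elsewhere. Genes that every cell uses are among these, so a listed 0 is no measure of their transcription here.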
